A study of Mus musculus with 6 samples.

Results

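The lysosome is the acidic compartment in which cells break down proteins, sugars, lipids and sulfated polymers. Soluble hydrolases do the cutting, saposins and other activator proteins lift lipids out of membranes for them, and heavily glycosylated membrane proteins line and guard the compartment. Inherited loss of single lysosomal enzymes in people causes storage disease. In blood stem cells lysosomal activity is studied in relation to dormancy, and in myeloid and antigen-presenting cells cathepsins process antigens and granule enzymes. The transcripts described here were those of 36 such genes, chosen by symbol from a list of lysosomal proteases, glycosidases, lipid-handling proteins, sulfatases and membrane proteins. Each of the 36 symbols had 1 row among the 30803 rows of the deposited tables, and all 36 passed the expression limit for testing.

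The RNA came from cells labelled as hematopoietic stem cells from marrow of 12-month-old wild-type mice, sorted into a fraction with high MHC class II (MHCII-hi, 3 libraries) and a fraction with low MHC class II (MHCII-lo, 3 libraries). No further allele or agent is named in the labels, and neither the sort gates nor the number of animals is given in the sources used here. Whether the libraries of a group stem from different mice is not stated, and each p-value is therefore relative to library-to-library spread that may be purely technical. Levels are in FPKM, fragments scaled to transcript length and to the library total, so levels can be compared between genes, and the depth is unknown. Several defining stem cell markers were near 0: of 12 listed, 5 (Procr, Slamf1, Mecom, Fgd5 and Hoxb5, named after their values were seen) had a mean under 1 FPKM, whereas Kit stood at 14.3 ± 0.175 FPKM in MHCII-lo against 13.9 ± 0.318 in MHCII-hi (SD, n = 3).

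Most of the lysosomal transcripts were lower in MHCII-hi, but each protease, glycosidase, lipid and membrane class also held at least 1 gene that was higher. At a limma adjusted p under 0.05, 24 of the 36 were lower and 9 were higher, and 3 (Naglu, Arsb and Mcoln1) did not pass. Of all 12037 tested genes, 40.6% were called lower and 20.4% higher. The median log2 fold change over the members was −0.31, beside −0.12 over all tested genes, on the log2(FPKM + 1) scale and as MHCII-hi minus MHCII-lo. After median-ratio scaling the calls over all tested genes were split differently, with 25.9% lower and 28.2% higher, while 22 of the members were lower and 9 higher. The members' median was then −0.20 beside −0.01 over all tested genes. The members stood at 22 lower and 9 higher also after quantile normalization (33.4% and 23.4% of all tested genes) and median centring (30.6% and 24.8%). The same counts were seen with library totals that exclude the neutrophil and primary granule lists described below (26.9% and 27.1%). The same 33 members had 3 libraries of MHCII-hi wholly on the called side of the 3 of MHCII-lo, 24 below and 9 above, where 45.0% and 22.6% of all tested genes did. A difference of at least 1.5-fold between the means was seen in 9 members that were lower and in 2 that were higher, against 11.6% and 9.3% of the tested genes. Within a group the members varied little, with a median coefficient of variation of 2.75% in MHCII-lo against 4.03% in MHCII-hi.

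**Figure D1:**
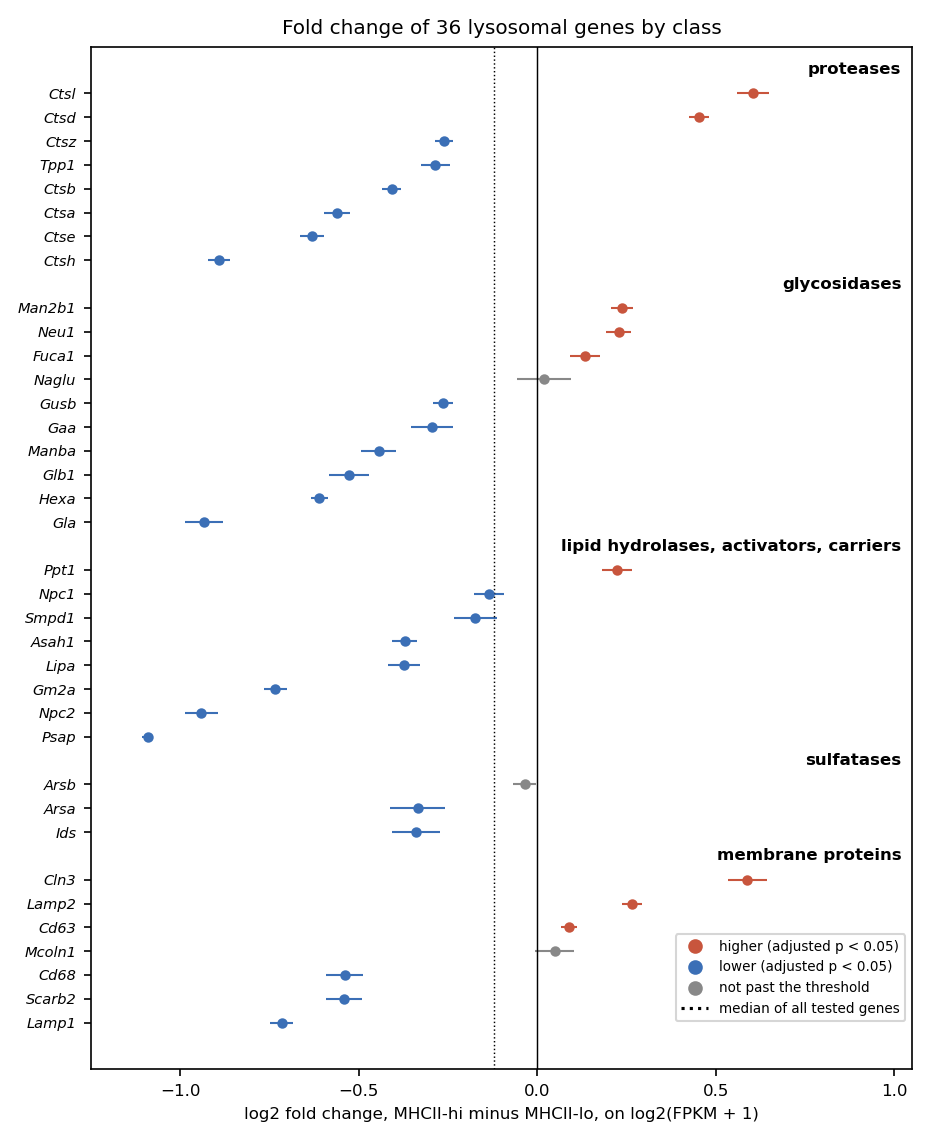
Fitted log2 fold change (MHCII-hi minus MHCII-lo, on log2(FPKM + 1)) of the 36 lysosomal genes, grouped by class and ordered by size; bars are standard errors, n = 3 libraries per group, and the dotted line is the median of all tested genes (−0.12). The points run from −1.09 for Psap to 0.60 for Ctsl, with 24 lower, 9 higher and 3 that did not pass.

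Summed over the 36 genes, the level was 2155 to 2161 FPKM in the MHCII-lo libraries and 1522 to 1533 in the MHCII-hi libraries. That was 0.658 to 0.659% and 0.439 to 0.445% of all summed FPKM. Psap alone made up 35.1 to 35.5% of the sum in MHCII-lo against 23.2 to 23.5% in MHCII-hi, and 64.3% of the fall in the sum. Without Psap the sum was 1396 ± 2.45 FPKM in MHCII-lo against 1171 ± 5.69 in MHCII-hi, a ratio of 0.839. In MHCII-lo 5 members stood above 100 FPKM (Psap, Lamp1, Ctsd, Ctsz and Hexa), and the lowest was Mcoln1 at 3.66 ± 0.163 FPKM. In these bulk samples fewer cells of a type and less RNA per cell cannot be told apart.

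**Figure D2:**
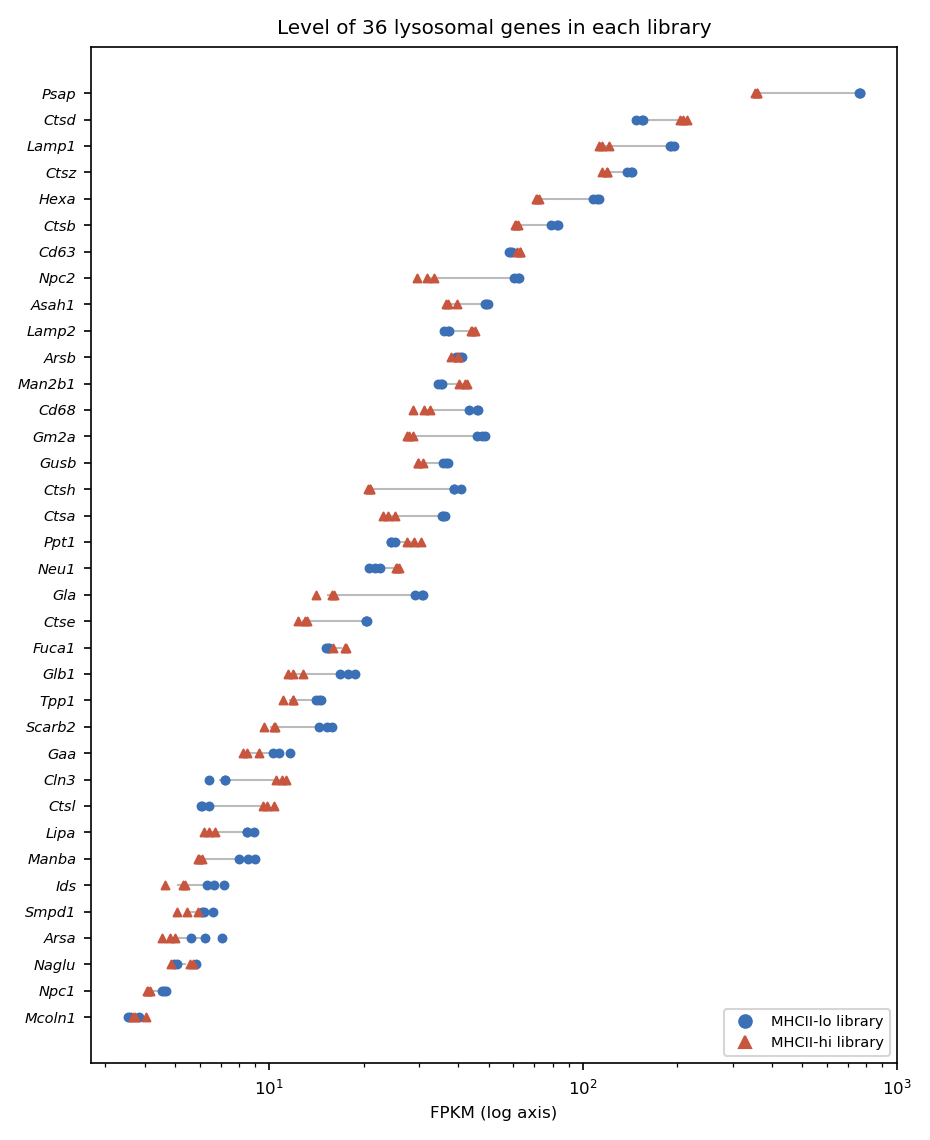
Level of each of the 36 genes in each library, in FPKM on a log axis, ordered by the mean over 6 libraries; circles are MHCII-lo libraries, triangles MHCII-hi libraries, and grey lines join the group means. Psap lies above all others at 757 to 767 FPKM in MHCII-lo against 354 to 360 in MHCII-hi, and Mcoln1 is lowest.

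Many lysosomal genes carry an E-box in the promoter to which the transcription factor TFEB and its relatives bind. Promoter sequences of RefSeq (build GRCm38.p6, 250 bases before to 50 after the start site) matched 31 of the 36 members by symbol. They were searched for CACGTG, which reads the same on both strands, and for the longer TCACGTGA, also the same on both strands, which contains it. CACGTG was found in 11 of the 31 (35.5%), against 8.09% of the 27025 genes in the table, or 7.15% of its 32851 promoters. TCACGTGA was found in 5 (16.1%), against 1.12% of all genes and 0.974% of promoters. A match describes these letters and is not a shown binding site. The 5 members with the longer motif are printed with the bases around it, because they include genes with all outcomes of the comparison; capitals mark 1 copy of TCACGTGA, and each runs 5′ to 3′ on the gene's own strand.
Ctsd (higher, chr7:142387908-142387937, minus strand): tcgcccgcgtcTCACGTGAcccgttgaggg
Cln3 (higher, chr7:126583340-126583369, minus strand): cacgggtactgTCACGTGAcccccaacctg
Gla (lower, chrX:134601182-134601211, minus strand): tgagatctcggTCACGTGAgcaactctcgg
Ctsa (lower, chr2:164833749-164833778, plus strand): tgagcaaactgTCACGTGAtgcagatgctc
Mcoln1 (not past the test, chr8:3500462-3500491, plus strand): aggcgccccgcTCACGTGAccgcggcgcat
Lamp1 held 4 copies of CACGTG, the most of any member, within 61 bases just before its start site; capitals mark CACGTG.
Lamp1 (lower, chr8:13159094-13159154, plus strand): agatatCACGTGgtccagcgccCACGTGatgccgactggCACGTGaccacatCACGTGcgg
By outcome, CACGTG was present in 3 of the 9 members called higher, 6 of the 19 called lower that had a promoter in the table, and 2 of the 3 that did not pass. None of the 6 lipid members with a promoter in the table held it, the strongly lowered Psap included.

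Among the proteases, 6 of 8 were lower in MHCII-hi and 2 were higher, beside 40.6% and 20.4% of all tested genes. Members of the same enzyme family parted. Cathepsin D (Ctsd, chromosome 7, 142375911 to 142388038, GRCm38), the main aspartic protease of lysosomes, was the most abundant of the class. It was at 147, 155 and 154 FPKM in the MHCII-lo libraries and at 204, 214 and 208 in the MHCII-hi libraries. All MHCII-hi libraries lay above all MHCII-lo libraries, and the log2 fold change was 0.45 (SE 0.0288, limma adjusted p 1.72e-05). Cathepsin E (Ctse, chromosome 1, 131638306 to 131675505), the other aspartic protease of the set, which sits mainly in endosomes, had 20.4, 20.5 and 20.3 FPKM in MHCII-lo against 12.3, 12.99 and 13.2 in MHCII-hi. Its groups did not overlap in the opposite direction, with a log2 fold change of −0.63 (SE 0.0347, adjusted p 8.2e-06). For Ctsd, 34.4% of the annotated exon bases are shared with Gm49369 on the same strand, which has no value in the tables used here.

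The cysteine cathepsins parted in the same way. Cathepsin L (Ctsl, chromosome 13, 64359337 to 64370890), an endopeptidase that also trims the invariant chain in some tissues, was low, at 6.07, 6.40 and 6.08 FPKM in MHCII-lo against 9.56, 9.85 and 10.4 in MHCII-hi. Its log2 fold change was 0.60 (SE 0.0443, limma adjusted p 3.46e-05), and 26.8% of its exon bases lie opposite Gm47123, not analysed here. Cathepsin H (Ctsh, chromosome 9, 90054152 to 90076089), an aminopeptidase, went the other way, from 38.9, 40.9 and 38.8 FPKM to 20.9, 20.6 and 21.0, 1.90 times lower (log2 fold change −0.89, SE 0.0308, adjusted p 8.38e-07). Cathepsin B (Ctsb), the broad endo- and exopeptidase, fell from 81.6 ± 2.15 to 61.3 ± 0.675 FPKM. The carboxypeptidase cathepsin Z (Ctsz) fell from 141.5 ± 2.93 to 118 ± 2.50 FPKM. The serine carboxypeptidase cathepsin A (Ctsa), which also protects 2 glycosidases described below, fell from 35.9 ± 0.464 to 24.0 ± 1.08 FPKM. Tripeptidyl peptidase (Tpp1), which is lost in a childhood form of neuronal ceroid lipofuscinosis, fell from 14.4 ± 0.265 to 11.6 ± 0.482 FPKM. As deposited, the 2 rises offset the 6 falls only in part. The class sum was then lower, without overlap, at 484 to 499 FPKM in MHCII-lo against 463 to 469 in MHCII-hi. After median-ratio scaling the log2 fold change of Ctsd moved from 0.45 to 0.58 and that of Ctsb from −0.41 to −0.28. Whether the class sum stays lower under that scaling was not tested.

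Of the 10 glycosidases, 6 were lower, 3 were higher and Naglu did not pass, beside 40.6% lower and 20.4% higher over all tested genes. The X-linked alpha-galactosidase A (Gla, chromosome X, 134588149 to 134601125), whose human loss causes Fabry disease, had 29.1, 30.6 and 30.9 FPKM in MHCII-lo against 15.8, 14.1 and 16.1 in MHCII-hi. This was the largest fall of the class, 1.97 times, with no overlap (log2 fold change −0.93, SE 0.0538, limma adjusted p 1.04e-05). The most abundant was Hexa (chromosome 9, 59539540 to 59565109), the alpha chain of the hexosaminidase that cuts GM2 ganglioside. It stood at 112, 111 and 107 FPKM in MHCII-lo against 71.5, 72.5 and 71.1 in MHCII-hi, 1.53 times lower (log2 fold change −0.61, SE 0.0237, adjusted p 1.47e-06).

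The smaller falls among the glycosidases were those of beta-galactosidase (Glb1, 17.8 ± 1.01 to 12.0 ± 0.704 FPKM), beta-mannosidase (Manba, 8.51 ± 0.506 to 5.99 ± 0.0781), beta-glucuronidase (Gusb, 36.4 ± 0.640 to 30.2 ± 0.644) and the glycogen-cutting alpha-glucosidase (Gaa, 10.9 ± 0.694 to 8.68 ± 0.530). The rises were those of 3 genes. Alpha-mannosidase (Man2b1, chromosome 8, 85083270 to 85098282) had 35.2, 34.5 and 35.6 FPKM in MHCII-lo against 42.0, 40.3 and 42.7 in MHCII-hi (log2 fold change 0.24, SE 0.0304, limma adjusted p 0.000526). The sialidase Neu1 (chromosome 17, 34931253 to 34935953) had 22.5, 21.7 and 20.8 against 25.5, 25.4 and 25.8 FPKM (log2 fold change 0.23, SE 0.0349, adjusted p 0.00126). In both genes every MHCII-hi library lay above every MHCII-lo library. The alpha-fucosidase Fuca1 rose from 15.4 ± 0.223 to 17.0 ± 0.856 FPKM (adjusted p 0.0289), a call lost when any single library except MHCII-hi replicate 1 was left out (adjusted p 0.0545 to 0.0875). Naglu, which cuts heparan sulfate, had 5.30 ± 0.477 and 5.38 ± 0.450 FPKM (adjusted p 0.848).

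The lipid class held the largest fall of all members. Prosaposin (Psap, chromosome 10, 60277627 to 60302597) is the precursor of the saposins, which several sphingolipid hydrolases need. Its level was 767, 757 and 763 FPKM in MHCII-lo against 358, 354 and 360 in MHCII-hi. The libraries of a group differed by little, and the groups lay 2.13 times apart (log2 fold change −1.09, SE 0.0141, limma adjusted p 1.07e-08). Npc2 (chromosome 12, 84754562 to 84773152), the soluble carrier that hands cholesterol to the membrane protein NPC1, followed with 62.5, 60.2 and 62.2 against 29.6, 33.5 and 31.9 FPKM. That was 1.95 times lower, again with no overlap (log2 fold change −0.94, SE 0.046, adjusted p 4.46e-06). Gm2a, the activator that presents GM2 ganglioside to the hexosaminidase, fell from 47.3 ± 1.38 to 28.1 ± 0.617 FPKM.

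The remaining lipid genes changed less. Acid ceramidase (Asah1) fell from 49.2 ± 0.731 to 37.8 ± 1.62 FPKM and lysosomal acid lipase (Lipa), which splits cholesteryl esters, from 8.63 ± 0.254 to 6.44 ± 0.275 FPKM. Acid sphingomyelinase (Smpd1) had 6.30 ± 0.255 and 5.48 ± 0.430 FPKM and Npc1 had 4.61 ± 0.0656 and 4.11 ± 0.0503 FPKM; both were called lower (limma adjusted p 0.0421 and 0.0277) but lost the call under each of 4 other scalings. After median-ratio scaling their adjusted p was 0.432 and 0.601. Npc1 lost the call also when any 1 of the 6 libraries was left out (adjusted p 0.0527 to 0.0769), and Smpd1 when any except MHCII-hi replicate 2 was (0.0635 to 0.123). Palmitoyl-protein thioesterase (Ppt1, chromosome 4, 122836242 to 122859175), which strips fatty acids from proteins, was the member of the class that was higher. It had 24.4, 25.1 and 24.4 FPKM in MHCII-lo against 28.9, 27.4 and 30.4 in MHCII-hi, without overlap (log2 fold change 0.22, SE 0.0416, adjusted p 0.00321). Ppt1 shares 3.51% of its exon bases with Cap1 on the opposite strand, which stood at 106 and 204 FPKM; whether the counting used strand is not stated.

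Sulfatases remove sulfate from lipids and glycosaminoglycans, and 2 of the 3 were lower, beside 40.6% of all tested genes. Arylsulfatase A (Arsa, chromosome 15, 89472476 to 89477425), which acts on sulfatide with a saposin, had 7.06, 5.64 and 6.22 FPKM in MHCII-lo against 5.0, 4.81 and 4.53 in MHCII-hi. Its 3 MHCII-lo libraries were spread more widely than the MHCII-hi ones but stayed above them (log2 fold change −0.33, SE 0.0772, limma adjusted p 0.00829). Iduronate sulfatase (Ids, chromosome X, 70343069 to 70365084) had 7.16, 6.31 and 6.67 against 5.37, 4.64 and 5.29 FPKM (log2 fold change −0.34, SE 0.0665, adjusted p 0.00402). Arylsulfatase B (Arsb), the most abundant of the 3, had 40.4, 41.1 and 39.3 against 39.99, 37.9 and 40.01 FPKM. The groups overlapped, with a log2 fold change of −0.04 (adjusted p 0.389) that turned to 0.09 after median-ratio scaling (adjusted p 0.0504). Sumf1, the enzyme that activates all sulfatases and that belongs to the wider hydrolase list described below, fell from 11.6 ± 0.321 to 6.75 ± 0.224 FPKM (adjusted p 1.06e-05); it was chosen after its values were seen.

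The 7 membrane proteins were evenly split, with 3 lower, 3 higher and the calcium channel Mcoln1 not past the test (3.66 ± 0.163 and 3.82 ± 0.193 FPKM, limma adjusted p 0.464). Over all tested genes 40.6% were lower, a share near that of this class, and 20.4% were higher. LAMP1 and LAMP2 are the major glycoproteins of the lysosomal membrane and resemble each other in build. Lamp1 (chromosome 8, 13159161 to 13175338), whose promoter is printed above, had 194, 189 and 191 FPKM in MHCII-lo against 115, 121 and 112.5 in MHCII-hi, 1.65 times lower (log2 fold change −0.72, SE 0.0311, adjusted p 2.53e-06). Lamp2 (chromosome X, 38401357 to 38456454), which also serves chaperone-mediated autophagy through an isoform that these tables do not separate, had 37.5, 35.98 and 37.1 against 44.2, 44.0 and 45.2 FPKM. It was higher in every MHCII-hi library (log2 fold change 0.27, SE 0.0272, adjusted p 0.000182).

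Cln3 (chromosome 7, 126571207 to 126585817), a membrane protein lost in juvenile neuronal ceroid lipofuscinosis, had 6.41, 7.21 and 7.21 FPKM in MHCII-lo against 10.5, 11.0 and 11.3 in MHCII-hi. The groups lay 1.58 times apart (log2 fold change 0.59, SE 0.0548, limma adjusted p 0.000113). Cln3 shares 7.65% of its exon bases with Apobr on the opposite strand, which went from 19.4 to 58.9 FPKM, and the part of those reads in the Cln3 value was not tested. Scarb2 (chromosome 5, 92441314 to 92506833), known as LIMP-2 and the carrier of glucocerebrosidase to the lysosome, had 14.4, 15.3 and 15.9 against 10.4, 9.59 and 10.4 FPKM. It was lower in every MHCII-hi library (log2 fold change −0.54, SE 0.05, adjusted p 0.000109). Cd68, the macrosialin of macrophages, fell from 45.2 ± 1.73 to 30.8 ± 2.02 FPKM. The tetraspanin Cd63, found in late endosomes, exosomes and granules, rose from 58.7 ± 0.635 to 62.5 ± 0.753 FPKM. Its log2 fold change was 0.09 as deposited (adjusted p 0.0115) but 0.22 after median-ratio scaling (adjusted p 0.000185).

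A single scaling factor per library leaves ratios between members within it as they are, which quantile normalization does not, and 10 ratios of deposited FPKM, chosen after the values were seen, were compared. Lamp1 to Lamp2 was 5.18, 5.25 and 5.16 in MHCII-lo against 2.60, 2.76 and 2.49 in MHCII-hi, 1.99 times lower. Ctsd to Ctsb was 1.86, 1.87 and 1.87 in MHCII-lo against 3.32, 3.46 and 3.44 in MHCII-hi. Ctsl to Ctsh moved most, from 0.156 ± 0.000397 to 0.476 ± 0.0177, 3.05 times higher. In these 3 ratios the 2 groups of libraries lay far apart compared with the spread within each. Psap to Lamp1, both lower, went from 3.98 ± 0.0306 to 3.08 ± 0.144, and Npc2 to Npc1, the partners in cholesterol export, from 13.4 ± 0.444 to 7.71 ± 0.386.

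Cathepsin A, beta-galactosidase and the sialidase form a complex in the lysosome. Glb1 to Ctsa was 0.496 ± 0.0231 in MHCII-lo against 0.502 ± 0.0427 in MHCII-hi, with overlapping libraries (exact permutation p 0.9, two-sided). By contrast, Neu1 to Ctsa went from 0.604 ± 0.0305 to 1.06 ± 0.038, 1.76 times higher. Gm2a to Hexa, activator to enzyme, was 0.409, 0.430 and 0.453 in MHCII-lo against 0.390, 0.380 and 0.405 in MHCII-hi, close together but not overlapping. For the 9 ratios other than Glb1 to Ctsa the exact permutation p was 0.1 (0.111 adjusted over the 10 ratios), the smallest that 3 libraries against 3 can give.

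**Figure D3:**
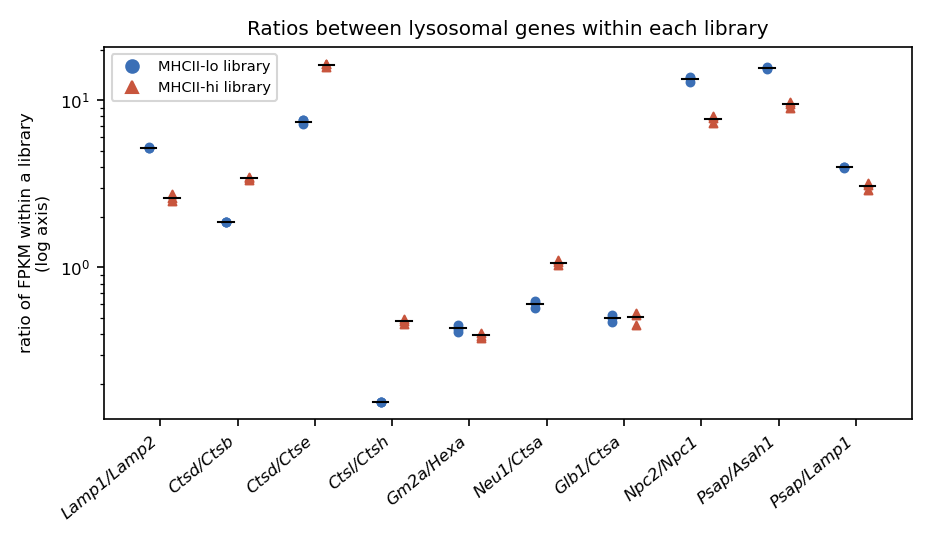
Ratio of the FPKM of 2 lysosomal genes within each library, on a log axis, for 10 ratios; circles are MHCII-lo libraries, triangles MHCII-hi libraries and short lines the group means. The groups overlap for Glb1 to Ctsa alone, and Ctsl to Ctsh is 3.05 times higher in MHCII-hi.

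Other lysosomal genes from lists drawn up beside the members were read in the same fit. Of 32 tested further hydrolases, 19 were lower and 5 higher in MHCII-hi, or 15 and 9 after median-ratio scaling. Over all tested genes 40.6% were lower and 20.4% higher, or 25.9% and 28.2% after that scaling. The median log2 fold change of these hydrolases was −0.25, beside −0.12 over all tested genes. The lowest were the serine carboxypeptidases Scpep1, which fell from 36.1 ± 1.39 to 13.1 ± 0.965 FPKM, and Prcp, which fell from 18.96 ± 0.535 to 8.77 ± 0.298 FPKM. The largest rises were those of Ctsk, the collagen-cutting cathepsin of osteoclasts (2.09 ± 0.611 to 13.4 ± 0.206 FPKM, log2 fold change 2.24, limma adjusted p 1.11e-05), and Plbd1, a phospholipase B-like protein (37.7 ± 2.19 to 108 ± 2.88 FPKM). Ctss, which cuts the invariant chain in antigen-presenting cells and was chosen after its values were seen, fell from 173 ± 2.71 to 105 ± 2.53 FPKM (log2 fold change −0.71, adjusted p 8.36e-07).

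Of 23 tested further membrane proteins and transporters, 11 were lower and 6 higher, and 6 and 7 after median-ratio scaling. Over all tested genes the balance turned too, from 40.6% lower and 20.4% higher to 25.9% and 28.2%. Slc11a1, the metal transporter of phagocyte lysosomes, rose from 2.95 ± 0.160 to 11.9 ± 0.393 FPKM and Litaf, which acts in endosomal sorting, from 16.8 ± 0.723 to 34.8 ± 0.299 FPKM. Slc29a3, a nucleoside transporter, fell from 12.2 ± 0.176 to 7.31 ± 0.686 FPKM and Tmem192 from 11.4 ± 0.696 to 7.27 ± 0.866 FPKM.

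The V-ATPase, the proton pump that acidifies the lysosome, had 8 of 18 tested genes higher and 6 lower, or 11 and 4 after median-ratio scaling. The shares over all tested genes were 20.4% higher and 40.6% lower, or 28.2% and 25.9% after that scaling. The median log2 fold change of the V-ATPase genes was 0.05 as deposited and 0.17 after median-ratio scaling. Atp6v0e2 was listed at 0 in all libraries. A pair of forms of the same subunit went in opposite directions. Atp6v0a1 rose from 4.99 ± 0.201 to 10.7 ± 0.735 FPKM (log2 fold change 0.96, limma adjusted p 1.19e-05), and Tcirg1, the a3 form, fell from 45.5 ± 1.72 to 34.4 ± 1.5 FPKM (log2 fold change −0.39, adjusted p 0.000226). Atp6v1g2, a G subunit (0.823 ± 0.190 to 1.44 ± 0.0656 FPKM), was the second largest rise and Atp6v1f (40.3 ± 3.15 to 32.0 ± 1.15 FPKM) the second largest fall.

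Sorting to the lysosome runs over mannose 6-phosphate tags and their receptors. Of 16 such genes 3 were higher and 6 lower (4 and 5 after median-ratio scaling), shares near the 20.4% and 40.6% of all tested genes. The cation-independent receptor Igf2r rose from 2.06 ± 0.0493 to 4.25 ± 0.101 FPKM and the cation-dependent receptor M6pr fell from 109.5 ± 1.10 to 86.1 ± 0.881 FPKM. The clathrin adaptor subunits Ap1m1 (24.5 ± 1.37 to 30.6 ± 1.94 FPKM) and Ap1b1 (19.1 ± 0.578 to 14.3 ± 0.438 FPKM) were higher and lower.

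The TFEB family, with the proteins that tie mTORC1 to the lysosome, had 1 of 15 tested genes higher and 8 lower. These counts turned to 4 and 3 after median-ratio scaling. Calls over all tested genes turned likewise, from 20.4% higher and 40.6% lower to 28.2% and 25.9%. Tfeb itself, chosen after its values were seen, had 3.86 ± 0.163 and 3.86 ± 0.236 FPKM (limma adjusted p 0.983). The related Tfec fell from 15.5 ± 0.784 to 8.90 ± 0.565 FPKM, and Mitf, also of the family, was lower too (2.46 ± 0.337 and 1.34 ± 0.115 FPKM). Fnip2, a folliculin partner, rose from 2.29 ± 0.236 to 3.31 ± 0.189 FPKM. Among the cystatins and stefins, which inhibit cysteine cathepsins, 6 of 9 tested were higher and 3 lower (6 and 1 after median-ratio scaling). Stfa2 went from 2.67 ± 0.168 to 193 ± 6.58 FPKM and Stfa3 from 1.47 ± 0.270 to 119 ± 9.09 FPKM; these are near-identical copies, so the split of reads among them is uncertain. The secreted Cst3 fell from 212 ± 3.79 to 126 ± 2.41 FPKM, and Cstb fell from 45.6 ± 2.28 to 37.2 ± 2.64 FPKM with a call lost after median-ratio scaling (adjusted p 0.0506).

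**Figure D4:**
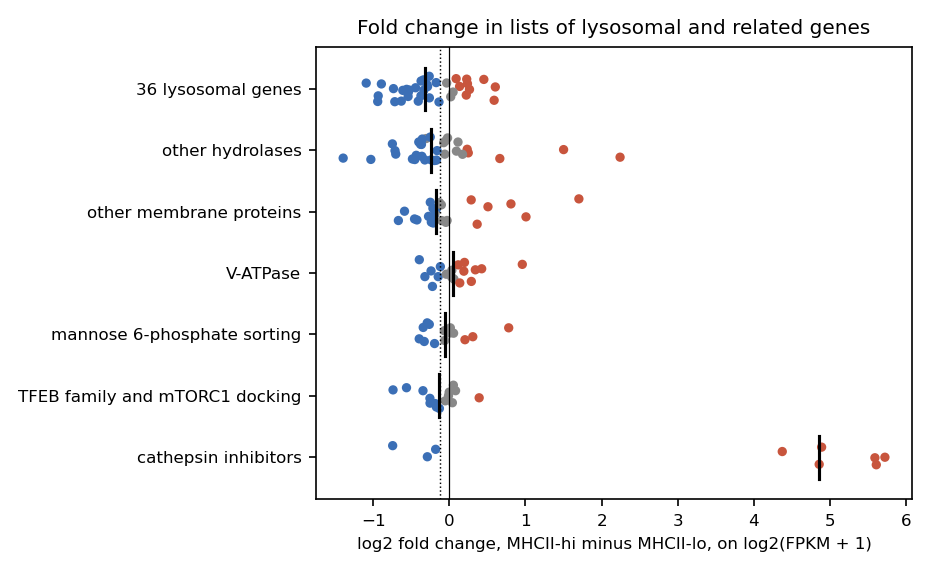
Fitted log2 fold change (MHCII-hi minus MHCII-lo, on log2(FPKM + 1)) of each tested gene in the 36 lysosomal genes and 6 related lists; red is higher, blue lower and grey not past the test, thick lines are list medians and the dotted line is the median of all tested genes. The median is −0.31 for the 36 genes and −0.25 for the other hydrolases, and 0.05 for the V-ATPase.

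Markers of several blood cell types moved between the same libraries. The counts below stand beside 40.6% lower and 20.4% higher over all tested genes, or 25.9% and 28.2% after median-ratio scaling. All 15 neutrophil markers were higher, with a summed level of 8585 to 8660 FPKM in MHCII-lo against 51970 to 52580 in MHCII-hi, led by S100a9 and S100a8. Among 5 primary granule genes 3 were lower and 1 higher, or 3 and 2 after median-ratio scaling (5786 to 5931 and 4831 to 4887 FPKM), with Mpo and Elane highest. All 7 tested of 10 dendritic cell markers were lower (106.8 to 108.0 and 43.7 to 46.3 FPKM), led by Irf8 and Bst2. The list for monocytes and macrophages held 13 genes, 9 of them tested, with 5 lower and 2 higher (376 to 381 and 261 to 265 FPKM), led by F13a1, which fell, and Cd14, which rose from 40.9 ± 1.90 to 64.2 ± 1.71 FPKM, with Marco listed at 0 in all libraries and, chosen after their values were seen, C1qa, C1qb and C1qc under 1 FPKM on average.

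Of 10 mast cell, basophil and eosinophil markers 8 were lower, or 7 after median-ratio scaling (4946 to 5023 and 2094 to 2116 FPKM), led by Prg2 and Prss34. Here too the shares over all tested genes were 40.6% lower and 20.4% higher, or 25.9% and 28.2% after that scaling. All 9 red cell markers were lower as deposited and 8 after median-ratio scaling (523 to 537 and 328 to 336 FPKM), led by Car1 and Car2. Of 7 tested of 12 B and plasma cell markers 4 were higher and none lower at the limma threshold (260.5 to 263.5 and 329 to 338 FPKM), led by Jchain and Xbp1. Of 5 tested of 8 T and NK cell markers 3 were lower as deposited and 1 after median-ratio scaling (169 to 178 and 145 to 155.5 FPKM); the most abundant, Nkg7 and Trac, lost their calls with that scaling (limma adjusted p 0.0743 and 0.144). Of 7 tested stem cell markers 4 were higher and 1 lower (50.6 to 53.8 and 55.7 to 58.8 FPKM), led by Kit and Cd34. With the neutrophil and primary granule lists left out of the library total, 22 of the 36 members were lower and 9 higher, as given above. The part of these other cell types in the lysosomal values was not tested.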

How the data were processed

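RNA from sorted mouse marrow cells was sequenced in 3 libraries per group as labelled. The FPKM values were made by the authors with fastp, HISAT2, StringTie and GRCm38, tools and build named without versions or order in the submitters' processing notes. A stranded mRNA kit was used, per the labels; whether the counting used strand is not given there. Each library has its own table of 30803 rows, whose header names no unit; FPKM was inferred from the tool and the values (2 decimals, sums of 327364 to 346651). FPKM are relative to the library total, of which the 10 most abundant genes took 11.6% in MHCII-lo and 19.4% in MHCII-hi. No step of single fragments was found in low values (mean cosine at most 0.0877), so depth is unknown and no counting interval is given.

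The members and lists were chosen with earlier results of these data known. For 70 repeated rows the highest-mean row was kept (no member repeated). The 12037 genes whose mean reached 1 FPKM were fitted as log2(FPKM + 1) by limma (version 3.58.1, under R 4.3.3). The model had the sort fraction alone and let the variance follow mean expression; p-values were adjusted by Benjamini-Hochberg across these genes, with a threshold of 0.05. The fit was tested on simulated data. Named companions were, per list, the 2 called genes with the largest change each way; per marker list, the 2 most abundant genes and any at 0; others are said to be chosen after their values were seen. Per-library values are given for the largest changes each way, at most 2, and the most abundant gene of a class. Gene positions and exon overlaps come from GENCODE M21 (GRCm38). Python 3.11.15 with pandas 2.3.3 and numpy 2.4.6 served for other steps.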

Additional observations from a re-analysis of the deposited data

How the results depend on the processing

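The 36 members were refitted under 16 alternatives, which gave 574 values, and 31 members kept their direction and their side of the threshold in each that could be fitted; 22 of them were called lower and 8 higher. The counts of members ranged from 22 to 24 lower and from 8 to 9 higher over all 16. Their median log2 fold change of −0.31 was −0.23 with a pseudocount of 5, −0.20 after median-ratio scaling and −0.26 after quantile normalization. It was −0.24 after median centring and −0.21 when totals excluded the neutrophil and primary granule lists. Relative to the median of all tested genes it lay between −0.30 and −0.16. Without single libraries the members' median ran from −0.35 to −0.29. The share of higher genes among all called genes was 33.4% as deposited. It moved to 41.2% under quantile normalization, 44.8% under median centring and 52.1% under median-ratio scaling. With the total without the neutrophil and primary granule lists it was 50.2%. The calls of Smpd1, Npc1 and Fuca1 were lost in 29 values. Arsb turned to 0.0936 after median-ratio scaling, 0.0374 after median centring and 0.0822 with totals without the neutrophil and primary granule lists. Naglu ranged from −0.0194 to 0.0798 without single libraries, below 0 without MHCII-lo replicate 2 or 3 or MHCII-hi replicate 1 or 3. Neither gene passed the test, and the cause was not tested. With the replicate number as a block, 22 members were lower and 9 higher and the median was −0.31. Smpd1 and Npc1 then lost their calls (limma adjusted p 0.0642 and 0.0652). Same-numbered libraries did not deviate together (correlations −0.0533, −0.0456 and −0.0435). These correlations cannot show whether the numbers pair the libraries, since the spread within a group may be purely technical. The labels do not say what the numbers stand for.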

Other observations

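The E-box CACGTG was also counted in promoters of the related lists, as a description with no test. It was present in 6 of 25 further hydrolases with a promoter in the RefSeq table, 4 of 14 V-ATPase genes, 3 of 22 further membrane proteins, 5 of 12 sorting genes, 5 of 15 genes of the TFEB and mTORC1 list and 0 of 8 cystatins and stefins, against 8.09% of all genes.

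Ctsg, chosen after its values were seen, is a serine protease of primary granules that shares the name but not the family of the lysosomal cysteine cathepsins. It had 1006 ± 5.99 FPKM in MHCII-lo against 1031 ± 24.2 in MHCII-hi and did not pass the test as deposited (limma adjusted p 0.157). Its call turned with the scaling: it was higher after median-ratio scaling (log2 fold change 0.17, adjusted p 0.000361) and lower after quantile normalization (log2 fold change −0.06, adjusted p 0.022).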
